A study of Mus musculus with 3 samples.

Results

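The cells described are monocytes of B16F10 tumours that carried RNA of both Ly6c2, the surface protein that marks classical monocytes of the mouse, and Chil3, a chitinase-like protein made in quantity by monocytes that have recently left the bone marrow. A barcode was taken as a classical monocyte where it held at least 1500 UMIs (unique molecular identifiers, 1 for each captured RNA molecule), under 10% of them mitochondrial, with at least 3 UMIs of Ly6c2 and at least 3 of Chil3. It also had to hold no UMI of Cxcl9, Arg1, Flt3 or Cd3e and fewer than 3 UMIs in all of Ace, Treml4 and Adgre4, which mark non-classical monocytes. These limits left 141 cells on day 3, 172 on day 7 and 151 on day 14, 464 of the 8139 barcodes that met the UMI and mitochondrial limits and of 10243 barcodes in all. The cells were thus chosen by measured RNA, so that Ly6c2, Chil3 and the genes set to 0 describe the choice and are no results.

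Classical monocytes are short-lived phagocytes that leave the bone marrow through the chemokine receptor Ccr2 and enter inflamed tissue and tumours. There they may become macrophages or cells that present antigen, and lose Ly6c2 while they do so. Interferon-gamma, which activated T and NK cells secrete, acts on them through Irf1 and other factors and turns on guanylate-binding proteins, immunity-related GTPases, chemokines that attract T cells and the genes of antigen processing.

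C57BL/6 mice bore subcutaneous B16F10 melanoma, a tumour line of the same strain. On day 9 after inoculation each mouse received Pmel-1 cytotoxic T lymphocytes, which recognise the melanoma antigen gp100 and had been activated in culture. CD45+ cells, the leukocytes of the tumour, were taken 3, 7 or 14 days after the transfer, when the tumours were 12, 16 and 23 days old, and profiled with droplet single-cell RNA sequencing. All groups had the transfer, and tumours of mice without it were not analysed here, so that the day after transfer and the age of the tumour cannot be told apart. Each day is 1 library of 3 pooled mice, which leaves no replicate check and no test between days. All intervals given are 95% intervals for counting error only.

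The libraries held 3656, 3038 and 3549 barcodes on days 3, 7 and 14, with medians of 7388.5, 7929.5 and 8240 UMIs. The classical monocytes had medians of 9284, 10128 and 10604 UMIs and summed to 1377477, 1779074 and 1682933 UMIs. Of their barcodes, 0, 2 and 1 occurred in more than 1 library, and 0, 3 and 3 were among the highest doublet scores. Levels are given as counts per 1000000 (CPM) of the UMIs summed over the cells of a group in a library. A gene was called higher or lower where both libraries together held 50 or more of its UMIs and the ratio was 1.5-fold or more, with an interval that excluded 1, a rule of size and not a test.

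Hp, which encodes haptoglobin, stood at 554, 609 and 637 CPM on days 3, 7 and 14, Vcan, which encodes versican, at 323, 434 and 475 CPM, and Ccr2 at 928, 975 and 837 CPM. A list of 16 classical monocyte genes that the choice did not use summed to 31259, 30968 and 26991 CPM, against 11227, 12078 and 10427 CPM in the macrophages described further on. Closer cells held more of it. Non-classical monocytes, with at least 3 UMIs of Ace, Treml4 and Adgre4 together, summed to 21871, 24829 and 18887 CPM. Ly6c2 monocytes with a Cxcl9 UMI summed to 20731, 20865 and 17747 CPM. Summed levels of T cell markers were 30.5, 50.03 and 41.0 CPM, against 7981, 12079 and 9494 CPM in Cd3e-positive cells. A list of 8 neutrophil markers summed to 284, 193 and 163 CPM, above the 110, 114 and 78.5 CPM of macrophages, with Ly6g and Stfa2l1 at 0. A list of 10 dendritic cell markers summed to 233, 209 and 226 CPM, against 376, 169 and 278 CPM in macrophages and 271, 311 and 349 CPM in Cd3e-positive cells, with Xcr1 and Siglech at 0. Of 7 melanoma markers, which summed to 21.1, 17.4 and 19.6 CPM, Mlana, Tyr and Sox10 were at 0. NK cell markers summed to 18.9, 283 and 22.6 CPM and B cell markers to 2.90, 2.25 and 33.3 CPM. On day 14 a single cell held 21 of the 22 UMIs of the B cell gene Cd79a, and the day 7 cells with NK cell RNA are described further on.

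Ly6c2 and Chil3 each have a close copy, Ly6c1 and Chil4. Of the stretches of 50 bases within the last 500 bases of the Ly6c2 transcripts in GENCODE M21, 34.4% also occur in Ly6c1, and 15.4% of those of Chil3 occur in Chil4. In the monocytes Ly6c1 held 2, 0 and 3 UMIs and Chil4 0, 1 and 0 on days 3, 7 and 14. Reads from such stretches may be lost or split in the authors' counting, so that the UMIs of Ly6c2 and Chil3 are uncertain to that extent.

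Ly6c2 was spread over a wide range of cells, with medians of 13, 10 and 9 UMIs and maxima of 84, 43 and 70 UMIs on days 3, 7 and 14. Chil3 had medians of 16, 20 and 19 UMIs and maxima of 58, 99 and 110 UMIs. Just inside the limits, 5, 10 and 6 cells held exactly 3 UMIs of Chil3, with Hp at 219, 265 and 304 CPM. Just outside, 6, 8 and 10 cells that met every other limit held 2 UMIs of Chil3, with Hp at 553, 430 and 452 CPM. At the Ly6c2 limit, 5, 15 and 16 members held 3 UMIs, with Hp at 76.9, 455 and 350 CPM. Outside it, 4, 20 and 19 cells held 2, with Hp at 384, 228 and 431 CPM. The cells next to the limits thus carried Hp on both sides of them, and at the Chil3 limit the members held less of it on each day. Those members held H2-Ab1 at 2650, 1894 and 3615 CPM, against 69.2, 1375 and 1538 CPM in the cells with 2 UMIs of Chil3.

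Classical monocytes made up 5.19% of barcodes past the limits on day 3 (4.38 to 6.09%), 6.67% on day 7 (5.74 to 7.71%) and 5.31% on day 14 (4.52 to 6.20%). The day 7 share was 1.29-fold the day 3 share (1.02 to 1.62), and the day 14 share was 1.02-fold the day 3 share (0.809 to 1.30). These shares rest on the Cxcl9 limit. Cxcl9 is a chemokine that interferon-gamma induces and that attracts activated T cells. Of the cells with at least 3 UMIs of both Ly6c2 and Chil3, 605, 398 and 375 in number, 67.6% held a Cxcl9 UMI on day 3, 30.9% on day 7 and 28.3% on day 14. After every cell was thinned to 1500 UMIs the shares were 54.2%, 18.3% and 16.5%. In Cd3e-positive cells, which are not known as a source of Cxcl9, 23.4%, 4.60% and 7.33% held a Cxcl9 UMI at full depth, with medians of 11425, 10085 and 8372.5 UMIs against 10305, 10583.5 and 11507 in the Ly6c2 and Chil3 cells. The part of free RNA in these shares was not tested. The level of Cxcl9 was 2466, 465 and 336 CPM in the Ly6c2 and Chil3 cells against 302, 19.0 and 72.6 CPM in Cd3e-positive cells. Without the Cxcl9 limit the shares of classical monocytes were 16.6%, 10.1% and 7.70%, so that day 7 lay 1.64-fold below day 3 (1.40 to 1.92) and day 14 lay 2.15-fold below it (1.82 to 2.54).

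Arg1, the arginase of tumour macrophages that breaks down arginine, ran the other way. An Arg1 UMI was found in 12.2% of the Ly6c2 and Chil3 cells on day 3, 16.6% on day 7 and 28.3% on day 14, and in 5.12%, 7.54% and 17.6% of them after thinning. In Cd3e-positive cells its share was 9.25%, 4.60% and 13.5% at full depth and 2.87%, 1.37% and 5.05% after thinning. Without the Arg1 limit the shares of classical monocytes were 5.92%, 8.19% and 7.88%. Both limits remove a part of the Ly6c2 and Chil3 cells that differs by day, and the results below describe the cells with neither RNA.

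**Figure D1:**
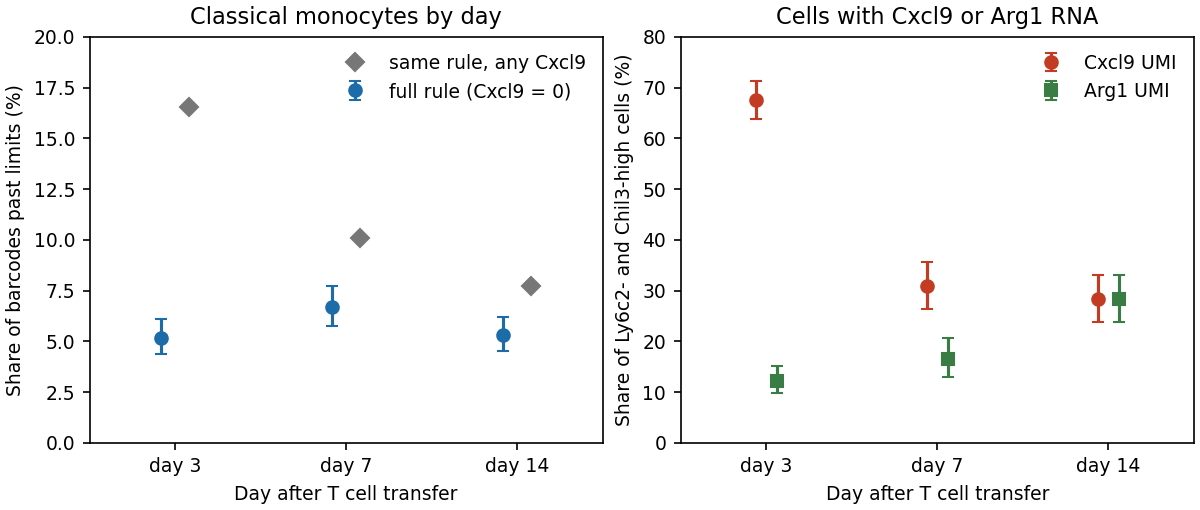
Left, classical monocytes as a share of barcodes past the UMI and mitochondrial limits on days 3, 7 and 14, by the full rule (circles, with 95% binomial intervals) and by the same rule without the Cxcl9 limit (diamonds). Right, share of cells with at least 3 UMIs of Ly6c2 and of Chil3 that held a UMI of Cxcl9 or of Arg1, with 95% binomial intervals. The full rule gives 5.19%, 6.67% and 5.31%, whereas without the Cxcl9 limit the share is highest on day 3 at 16.6%.

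Genes of the interferon-gamma response were lower on each later day in the classical monocytes. Of 18 such genes, 14 were lower on day 14 than on day 3 and none was higher, where 7.88% of the 5645 genes measured were lower and 4.73% higher. The median ratio of the 18 genes was -1.46 on the log2 scale, beside -0.01 for all genes measured, and all 18 had a ratio below 1. Between days 3 and 7, 12 of the 18 genes were lower and none higher (3.91% of 5702 genes lower, 4.59% higher), with a median of -0.83. From day 7 to day 14, 9 were lower and none higher (5.58% of 5946 genes lower, 3.14% higher), with a median of -0.60. The cells were chosen without Cxcl9, itself a target of interferon-gamma, so the list describes cells on the low side of that response on every day.

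Of its genes, 4 are shown with the 250 bases before their start, since these are where the factors of the pathway are known to bind. A pair of motifs was searched on both strands. The first is 2 copies of GAAA with 2 bases of any kind between them, a short form of the interferon-stimulated response element (ISRE) that interferon regulatory factors bind, and the second is TTCNNNGAA, the core of the gamma-activated site (GAS). The motifs do not overlap each other in the sequences shown, and their matches are in capitals. The sequences are those of RefSeq on GRCm38.p6, in the direction of transcription, and were picked after the values were seen, for their high levels or for holding both motifs.
Irf1, chr11:53769764-53770013, plus strand, GAS in capitals: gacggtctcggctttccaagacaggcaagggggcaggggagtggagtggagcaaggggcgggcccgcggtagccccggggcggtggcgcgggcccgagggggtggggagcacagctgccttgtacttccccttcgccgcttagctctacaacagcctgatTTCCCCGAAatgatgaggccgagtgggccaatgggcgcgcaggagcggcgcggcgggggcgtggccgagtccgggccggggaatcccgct
Gbp2, chr3:142620413-142620662, plus strand, ISRE in capitals: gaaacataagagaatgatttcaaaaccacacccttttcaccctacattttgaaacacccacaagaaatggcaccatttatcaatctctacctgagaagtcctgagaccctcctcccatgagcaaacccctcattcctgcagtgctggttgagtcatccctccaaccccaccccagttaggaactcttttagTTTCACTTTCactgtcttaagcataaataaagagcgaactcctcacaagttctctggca
Cxcl10, chr5:92348890-92349139, minus strand, ISRE in capitals: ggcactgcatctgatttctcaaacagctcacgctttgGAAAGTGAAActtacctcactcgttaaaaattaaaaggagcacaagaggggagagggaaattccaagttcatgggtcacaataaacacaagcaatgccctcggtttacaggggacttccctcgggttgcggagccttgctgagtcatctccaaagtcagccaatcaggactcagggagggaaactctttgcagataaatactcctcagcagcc
Igtp, chr11:58199306-58199555, plus strand, GAS and then ISRE in capitals: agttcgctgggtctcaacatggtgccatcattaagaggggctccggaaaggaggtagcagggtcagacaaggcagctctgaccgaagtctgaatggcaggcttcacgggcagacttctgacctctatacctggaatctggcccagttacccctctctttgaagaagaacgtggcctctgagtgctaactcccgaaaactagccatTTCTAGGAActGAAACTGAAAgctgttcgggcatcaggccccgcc
Of the 18 genes, 13 had a promoter entry, and 11 of these (84.6%) held at least 1 of the motifs, against 11.1% of 27025 genes with an entry. The ISRE form was found in 8 of the 13 and in 3.46% of all genes, and the GAS core in 6 of the 13 and in 8.13% of all genes. Of 12 genes of the type I interferon list with an entry, 5 held the ISRE form, 2 the GAS core and 6 at least 1 of them. Of 14 inflammatory mediator genes with an entry, 0 held the ISRE form and 1 the GAS core. A gene counted as holding a motif where any of its entries held it. A further entry of Irf1, chr11:53770223-53770472, held neither motif. A match describes letters in this window and is no measured binding.

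Irf1, the transcription factor that carries the interferon-gamma signal to its targets, was at 725, 382 and 220 CPM on days 3, 7 and 14. Day 14 was 3.29-fold lower than day 3 (2.91 to 3.71). It thus had its highest level on day 3 and its lowest on day 14. Irf8, a factor of monocyte and dendritic cell development that interferon-gamma also induces, was at 1045, 447 and 425 CPM and differed mainly between days 3 and 7, with day 7 lower by 2.34-fold (2.14 to 2.55). Socs1, the inhibitor that the pathway makes against its own kinases, was at 251, 137 and 45.2 CPM and 5.56-fold lower on day 14 than on day 3 (4.33 to 7.23).

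Among the guanylate-binding proteins, which attack the membranes of intracellular pathogens, Gbp2 was at 1999, 719 and 609 CPM on days 3, 7 and 14. Most of its difference lay between days 3 and 7, at 2.78-fold lower (2.60 to 2.97). Gbp3 was at 303, 152 and 113 CPM. The immunity-related GTPases, which act on the same compartments, behaved alike in direction. Irgm1 was at 269, 127 and 61.2 CPM, 4.40-fold lower on day 14 than on day 3 (3.53 to 5.53), and Igtp at 225, 125 and 80.2 CPM, 2.81-fold lower (2.28 to 3.46). Iigp1 had the largest ratio of the list at 93.6, 27.0 and 10.7 CPM, 8.76-fold lower on day 14 than on day 3 (5.33 to 15.2). It rests on few molecules, 129, 48 and 18 UMIs in 33, 18 and 8 cells.

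Cxcl10, the chemokine that recruits T cells through the same receptor as Cxcl9, was at 3480, 1156 and 632 CPM on days 3, 7 and 14. Day 14 was 5.50-fold lower than day 3 (5.15 to 5.89). Some list members were not called between days 3 and 14. Psmb8, a subunit of the immunoproteasome, stood at 963, 753 and 731 CPM, Fcgr1, the high-affinity Fc receptor, at 429, 520 and 380 CPM, and Ly6a at 362, 289 and 328 CPM. Ciita, the master regulator of MHC class II, stood at 40.7, 37.7 and 30.9 CPM, and its interval for day 14 over day 3 included 1 (log2 ratio -0.40, -0.97 to 0.17).

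**Figure D2:**
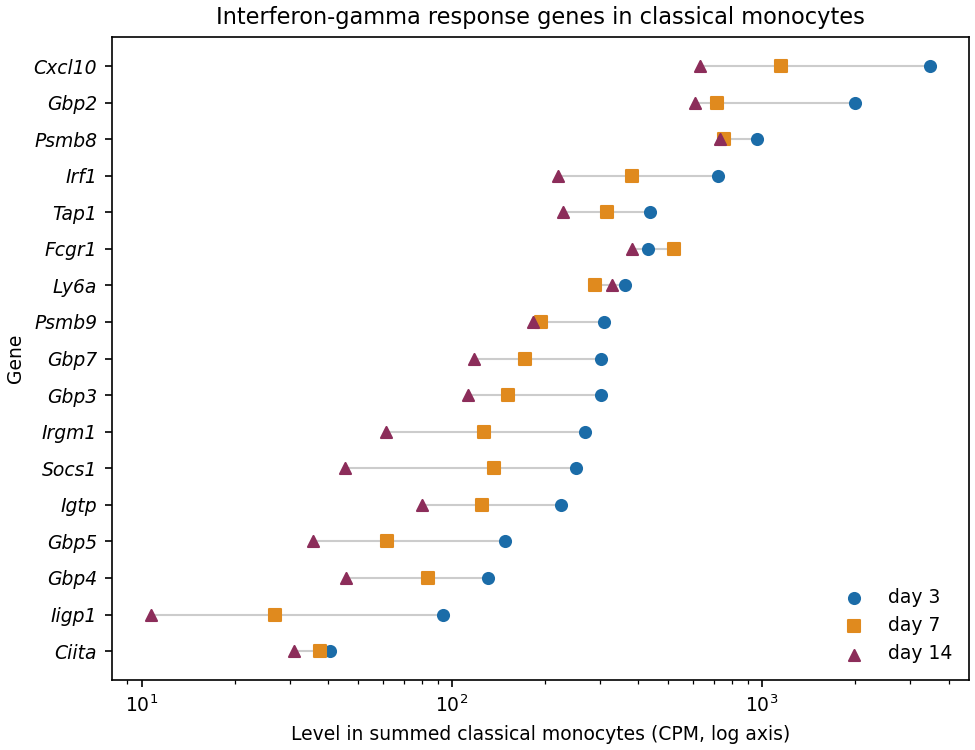
Level of 17 of the 18 interferon-gamma response genes in the summed classical monocytes of each library (CPM, log axis), with day 3 as circles, day 7 as squares and day 14 as triangles. The triangles lie left of the circles in all 17 genes shown, from Cxcl10 at 3480 and 632 CPM to Iigp1 at 93.6 and 10.7 CPM, with small differences in Ciita, Ly6a, Fcgr1 and Psmb8.

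The lower levels were seen across the cells and not in a few of them. Summed over 17 genes of the list, without Cxcl10, the median cell carried 6630 CPM on day 3 (quartiles 4449 and 9338), 3694 CPM on day 7 (2244 and 5757) and 2316 CPM on day 14 (1379 and 4525). The lower quartile of day 3 lay close to the upper quartile of day 14. The ranges of single cells overlapped between all days, from 766 to 19481 CPM on day 3 and from 317 to 13470 CPM on day 14. On day 14 the quartiles lay further apart relative to the median than on day 3.

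Genes of the type I interferon response, which interferons of the alpha and beta kind induce, were placed differently in time. Of 16 such genes measured, 2 were lower and 1 higher on day 7 than on day 3, where 3.91% of all genes were lower and 4.59% higher, with a median of -0.09 on the log2 scale. From day 7 to day 14, 9 of 16 were lower and none higher (5.58% and 3.14% of all genes), with a median of -0.69. On day 14, 10 of 16 were lower than on day 3 (7.88% of all genes). Isg15, a ubiquitin-like protein, was at 560, 477 and 292 CPM on days 3, 7 and 14. Rsad2, the antiviral enzyme viperin, was highest on day 7 at 168, 290 and 154 CPM, 1.72-fold above day 3 (1.47 to 2.02), a log2 ratio of 0.78 that was 0.46 and not called without the Cxcl9 limit. Irf7, the factor that amplifies this response, was at 429, 354 and 266 CPM, 1.61-fold lower on day 14 than on day 3 (1.42 to 1.83). The interferon-gamma list thus had its larger step before day 7 and the type I list after it, and some genes answer to both kinds of interferon.

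**Figure D3:**
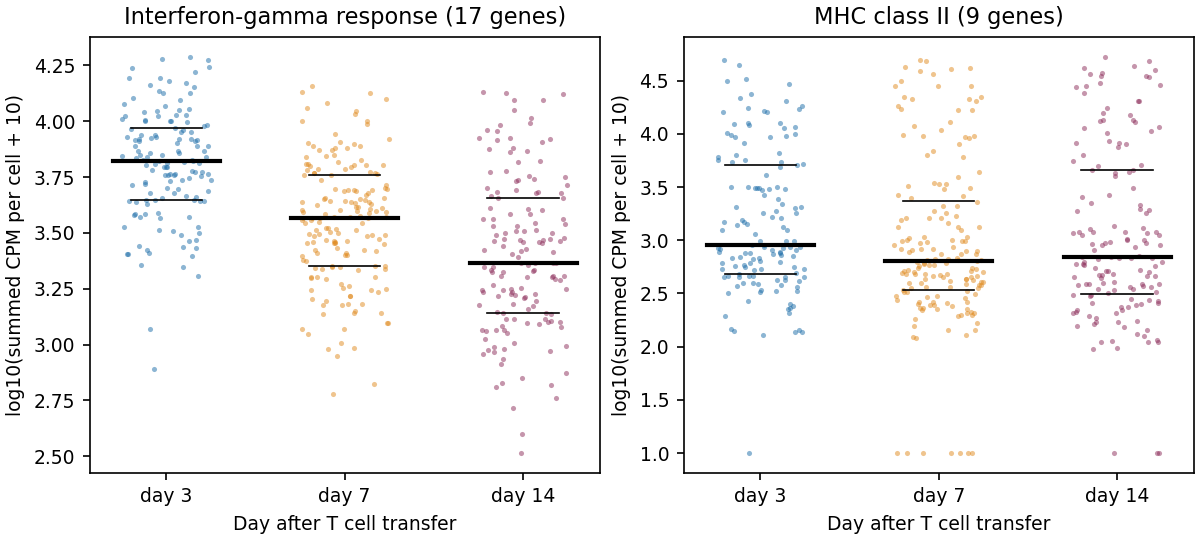
Summed level per cell of 17 interferon-gamma response genes (left) and 9 MHC class II genes (right) in classical monocytes, 1 point for each cell, as log10 of CPM plus 10; thick lines are medians and thin lines quartiles. The interferon-gamma medians step down from 6630 to 3694 and 2316 CPM, while the MHC class II medians of 899, 631 and 686 CPM lie under a long upper tail on every day.

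Inflammatory mediators differed mainly between days 3 and 7. Of 13 measured, 6 were lower on day 7 than on day 3 and 1 was higher, where 3.91% of all genes were lower and 4.59% higher. Their median was -0.57 on the log2 scale, beside 0.01 for all genes, and lay between -0.69 and -0.09 under the alternatives. Tnf, the cytokine tumour necrosis factor, was at 237, 56.8 and 52.3 CPM on days 3, 7 and 14, so that day 7 was 4.17-fold lower than day 3 (3.33 to 5.26). Acod1, the enzyme that makes itaconate in activated phagocytes, was at 373, 78.7 and 55.9 CPM, 4.74-fold lower on day 7 than on day 3 (3.93 to 5.76). Day 3 stood apart from both later days in these genes. Tnfaip3, which restrains NF-kappa-B signalling, was at 231, 89.9 and 86.8 CPM, and Sod2, the mitochondrial superoxide dismutase, at 501, 306 and 239 CPM.

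Il1b, the precursor of interleukin 1 beta, was among the most abundant mediators and was not called in any of these comparisons. It stood at 3814, 3786 and 2771 CPM on days 3, 7 and 14. Il1rn, its receptor antagonist, was at 295, 199 and 113 CPM and 2.61-fold lower on day 14 than on day 3 (2.19 to 3.12). Osm, which encodes oncostatin M, was the mediator that was higher on day 7, at 505, 829 and 675 CPM, 1.64-fold above day 3 (1.499 to 1.80), and without the Cxcl9 limit its log2 ratio of 0.72 was 0.50 and not called. The mediators thus differed among themselves in direction.

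Chemokines other than Cxcl10 also ran in different directions. Cxcl2, which attracts neutrophils, was at 2529, 2460 and 4115 CPM on days 3, 7 and 14, 1.67-fold higher on day 14 than on day 7 (1.61 to 1.74). Its relative Cxcl3 was at 24.7, 91.1 and 174 CPM, although 91 of its 162 UMIs on day 7 came from 1 cell, and its log2 ratio of 1.88 between days 7 and 3 was 0.36 without the Arg1 limit. Ccl3 and Ccl4, inflammatory chemokines that attract leukocytes, were lower on day 7 than on day 3, Ccl3 at 457, 229 and 322 CPM and Ccl4 at 1442, 847 and 744 CPM. Of 14 chemokines measured, 3 were higher and 4, with Cxcl10, lower on day 7 than on day 3 (4.59% and 3.91% of all genes). Ccl5, among the higher, and Pf4, among the lower, rest on few cells, as described further on.

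Several genes of different lists, picked after their values were seen, had their highest level on day 7. Thbs1, the matrix protein thrombospondin 1, was at 1371, 2524 and 1808 CPM on days 3, 7 and 14, 1.84-fold higher on day 7 than on day 3 (1.74 to 1.94), and the difference between days 14 and 7 was not called. Klf4, a factor needed for monocyte formation, was at 162, 255 and 166 CPM, 1.57-fold higher (1.34 to 1.85). Cx3cr1, the fractalkine receptor that is high on non-classical monocytes, was at 25.4, 64.6 and 24.96 CPM, 2.54-fold higher on day 7 than on day 3 (1.73 to 3.83). Vegfa, which stimulates vessel growth, was at 105, 180 and 109 CPM, and Trem1, a receptor that amplifies inflammation, at 72.6, 116 and 68.9 CPM. Klf4, Cx3cr1, Vegfa and Trem1 were called both higher than on day 3 and higher than on day 14. Some of these calls were lost under alternatives. For Vegfa the log2 ratio of 0.78 between days 7 and 3 was 0.31 without the Cxcl9 limit and 0.58 without the Arg1 limit. It was 0.50 with at least 5 UMIs of Ly6c2 and Chil3. Between days 14 and 7 its ratio was -0.40 without the Cxcl9 limit and -0.22 without the Arg1 limit, against -0.73. That of Klf4 between days 14 and 7, -0.62, was -0.50 with at least 5 UMIs of Ly6c2 and Chil3. It was -0.58 without shared barcodes, and also with CPM outside mitochondrial and ribosomal genes.

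Of 14 receptors for homing and adhesion measured, 1 was higher and none lower on day 7 than on day 3 (4.59% and 3.91% of all genes). On day 14, 2 were lower than on day 7, Cxcr4 and Cx3cr1 (5.58% of all genes), and 2 were lower than on day 3 (7.88% of all genes). Itgal, a chain of the integrin LFA-1, was one of these, at 222, 170 and 147 CPM on days 3, 7 and 14, 1.51-fold lower on day 14 than on day 3 (1.27 to 1.79), a value at the limit of a call that was below it under 6 of the alternatives. Ccr2 was not called in any comparison of days. Slc15a2, a peptide transporter, was among the genes with the lowest ratios on day 14 over day 7, at 21.8, 36.5 and 5.35 CPM. Tagap, a GTPase-activating protein of leukocytes, was among the lowest on day 14 over day 3, at 127, 34.3 and 19.6 CPM.

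Cd274, the ligand PD-L1 that restrains T cells and that interferon-gamma induces, was at 330, 181 and 131 CPM on days 3, 7 and 14. Day 14 was 2.52-fold lower than day 3 (2.14 to 2.98). It was the single called member of 12 suppressive mediators measured between days 3 and 14, a share near the 7.88% of all genes that were lower.

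The MHC class I pathway was lower on day 14 than on day 3 in 6 of 10 genes measured, with a median of -0.68 on the log2 scale and none higher. Of all genes, 7.88% were lower and 4.73% higher. The class I and interferon-gamma lists share a member that is among the 6. H2-D1, a class I heavy chain, was at 1988, 1629 and 1316 CPM on days 3, 7 and 14. Nlrc5, the regulator of the class I genes, was at 84.9, 46.1 and 30.9 CPM, 2.75-fold lower on day 14 than on day 3 (1.97 to 3.89). Tapbp, which loads peptide onto class I, was at 470, 356 and 275 CPM. The non-classical H2-Q members went the other way between days 3 and 7, H2-Q6 at 4.36, 26.4 and 16.6 CPM and H2-Q7 at 60.3, 111 and 87.9 CPM. Without the Cxcl9 limit their log2 ratios between days 7 and 3 were 0.64 and 0.26, against 2.60 and 0.89, and that of H2-Q7 was not called. The H2-Q genes are close copies of each other, so that reads among them may be split and their values are uncertain.

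MHC class II genes, which present peptide to CD4 T cells, did not follow the class I genes. H2-Ab1 was at 671, 952 and 1168 CPM on days 3, 7 and 14, 1.74-fold higher on day 14 than on day 3 (1.61 to 1.88), and H2-Eb1 at 434, 684 and 789 CPM, 1.82-fold higher (1.65 to 2.01). Of the barcodes that occur in more than 1 library, 0 were of day 3 and 1 of day 14. Without them these log2 ratios of 0.80 and 0.86 were 0.56 and 0.52 and were not called. Both calls thus depended on 1 day 14 cell. Without the Cxcl9 limit the log2 ratio of H2-Ab1 was 0.47. H2-Ab1 and H2-Eb1 were the 2 called members of 7 measured (4.73% of all genes higher), and Cd74, the invariant chain, was not called at 2388, 2886 and 3071 CPM. Class II RNA was held by a part of the cells, and the median cell summed to 899, 631 and 686 CPM over the 9 class II genes. The median cell was thus not higher on day 14 than on day 3. The 15, 18 and 16 cells with the most H2-Ab1 held 70.3%, 85.1% and 77.2% of its UMIs on days 3, 7 and 14. At least 5 UMIs of H2-Ab1 were found in 36, 35 and 40 cells, 25.5% (18.6 to 33.6%), 20.3% (14.6 to 27.1%) and 26.5% (19.6 to 34.3%) of the monocytes.

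The monocytes with at least 5 UMIs of H2-Ab1, a limit set after the values were seen, also differed from the others in markers. Hp was at 251, 227 and 180 CPM in them on days 3, 7 and 14, and at 684, 739 and 842 CPM in the rest. Levels of Ccr2 lay close together, at 813, 1008 and 869 CPM against 977, 964 and 822 CPM. C1qb, a complement chain made by macrophages, was at 535, 589 and 833 CPM against 57.1, 51.9 and 62.8 CPM, and Apoe, which carries lipid, at 1570, 716 and 1414 CPM against 778, 550 and 641 CPM. Zbtb46, a dendritic cell factor, was at 0 CPM in the H2-Ab1 cells of all 3 libraries and at 1.04, 0.752 and 0 CPM in the rest. These levels are too low to tell the sets of cells apart. Their median depths of 10671, 12172 and 11547 UMIs were above the 9077, 9882 and 10311 UMIs of the rest, and the part of depth in the choice of these cells was not tested.

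Some of the largest ratios between days came from 1 to 3 cells. On day 14 a single barcode with 15105 UMIs held all 778 UMIs of Camp, all 644 of Ngp and all 127 of Ltf, which are granule proteins of developing neutrophils. The same barcode held 2282 of 2298 UMIs of S100a9, 1487 of 1547 of S100a8 and 260 of 342 of Lcn2. Without it, which was tried after seeing the data, S100a9 had a log2 ratio of -2.86 between days 14 and 3, which is 4.29 with it, S100a8 one of -0.97, against 3.71, and Lcn2 one of 2.76, against 4.81. Of the 9 neutrophil granule genes measured, 8 were higher on day 14 than on day 3 with the barcode (4.73% of all genes). The median of the list was 4.81 with the barcode and 0.57 without it. On day 3 a single cell held 93 of 96 UMIs of S100a9. Prtn3, the proteinase of early granules, was spread over more cells, with 24, 33 and 102 UMIs in 20, 24 and 43 cells on days 3, 7 and 14, 3.48-fold higher on day 14 than on day 3 (2.21 to 5.68). Wfdc21 held 1, 0 and 58 UMIs, 38 of them in 1 cell.

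On day 7, 3 cells held 348 of the 361 UMIs of Gzma, a granzyme of NK and T cells. Nkg7, another cytotoxic granule gene, held 12, 75 and 11 UMIs on days 3, 7 and 14. Without these 3 cells, again tried after seeing the data, the log2 ratio of Ccl5 between days 7 and 3 was -0.11, against 2.18 with them. On day 14 a single cell held 57 of 63 UMIs of Ccr7, a receptor of migrating dendritic cells, and 307 of 396 UMIs of Ccl5. Spp1, which encodes osteopontin, was at 77.7, 232 and 637 CPM, and 634 of its 1072 UMIs on day 14 were in 1 cell. Saa3, an acute-phase protein, held 8, 63 and 115 UMIs in 3, 5 and 14 cells. Lyz1, a lysozyme gene that is a close copy of Lyz2, held 125, 123 and 24 UMIs, of which 75 on day 3 and 105 on day 7 were in 1 cell each. Pf4, a chemokine of platelets and macrophages, held 119, 35 and 68 UMIs, of which 90 on day 3 were in 1 cell. Inhba, a chain of activin, was spread over 27, 36 and 17 cells at 118, 137 and 37.4 CPM, and its log2 ratio of -1.65 between days 14 and 3 was -0.23 without the Arg1 limit. Timp1, an inhibitor of metalloproteinases, was spread over 13, 27 and 9 cells at 22.5, 52.3 and 12.5 CPM. Cbr2, a carbonyl reductase, held 45, 13 and 5 UMIs.

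Macrophages were taken for comparison as barcodes past the same UMI and mitochondrial limits. They held at least 1 UMI of Adgre1 and of C1qa and none of Ly6c2. The limits on Cxcl9, Arg1, Flt3, Cd3e, Ace, Treml4 and Adgre4 were applied to the monocytes only. T cell markers summed to 343, 110 and 255 CPM in the macrophages on days 3, 7 and 14, against 30.5, 50.03 and 41.0 CPM in the monocytes. The macrophages numbered 63, 29 and 135, or 2.32%, 1.13% and 4.75% of barcodes, with medians of 17516, 10335 and 18690 UMIs. The day 7 macrophages summed to 308338 UMIs and limit what could be called. Of the macrophage barcodes, 11, 2 and 7 occurred in more than 1 library. Ly6c2 and its correlates entered the choice of both groups, and Adgre1, C1qa and their correlates that of the macrophages. The differences between the groups are therefore a description. Of 4641 genes with at least 50 UMIs in each library, 400 (8.62%) were higher in monocytes and 212 (4.57%) lower in all 3 libraries.

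Genes of the classical monocyte list that the choice did not use were higher in monocytes in 11 of 16 cases (8.62% of all genes). None was lower (4.57% of all genes). Hp had 554, 609 and 637 CPM in monocytes on days 3, 7 and 14 and 14.1, 16.2 and 12.6 CPM in macrophages. Plac8, a cysteine-rich protein abundant in myeloid cells, had 5291, 3833 and 4581 CPM against 714, 486 and 312 CPM, 7.41-, 7.88- and 14.7-fold more. Both were higher in each library. Gsr, which recycles glutathione, had 540, 659 and 741 CPM against 36.9, 42.2 and 73.6 CPM. Cd177, a surface glycoprotein best known from neutrophils, had 113, 122 and 75.5 CPM in monocytes, and Dmkn, a secreted protein first described in skin, 122, 207 and 112 CPM, and both were higher than in the macrophages of each library. Vcan and Ccr2 differed less, Vcan by 4.67-, 3.62- and 5.03-fold and Ccr2 by 3.33-, 1.51- and 2.85-fold. Fn1 and F13a1, the genes of fibronectin and a clotting factor, were not called, and day 3 lay on the other side of 1 from days 7 and 14, with log2 ratios of -0.44, 0.81 and 0.31 for Fn1 and -0.27, 0.74 and 0.25 for F13a1.

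Macrophage maturation genes were lower in monocytes in 11 of 14 cases and higher in none (4.57% and 8.62% of all genes). Among the lower, C1qb and C1qc go with C1qa, by which the macrophages were chosen, and so describe the choice. C1qb had 201, 188 and 301 CPM in monocytes on days 3, 7 and 14 and 2590, 2205 and 2908 CPM in macrophages. Mrc1, the mannose receptor, had 57.4, 34.8 and 19.0 CPM against 617, 509 and 558 CPM. Trem2, a lipid receptor of tissue macrophages, had 58.1, 33.2 and 79.0 CPM against 322, 172 and 317 CPM. Csf1r, the receptor of the growth factor that sustains both cell types, was not called, at 355, 351 and 304 CPM in monocytes against 285, 383 and 319 CPM in macrophages.

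**Figure D4:**
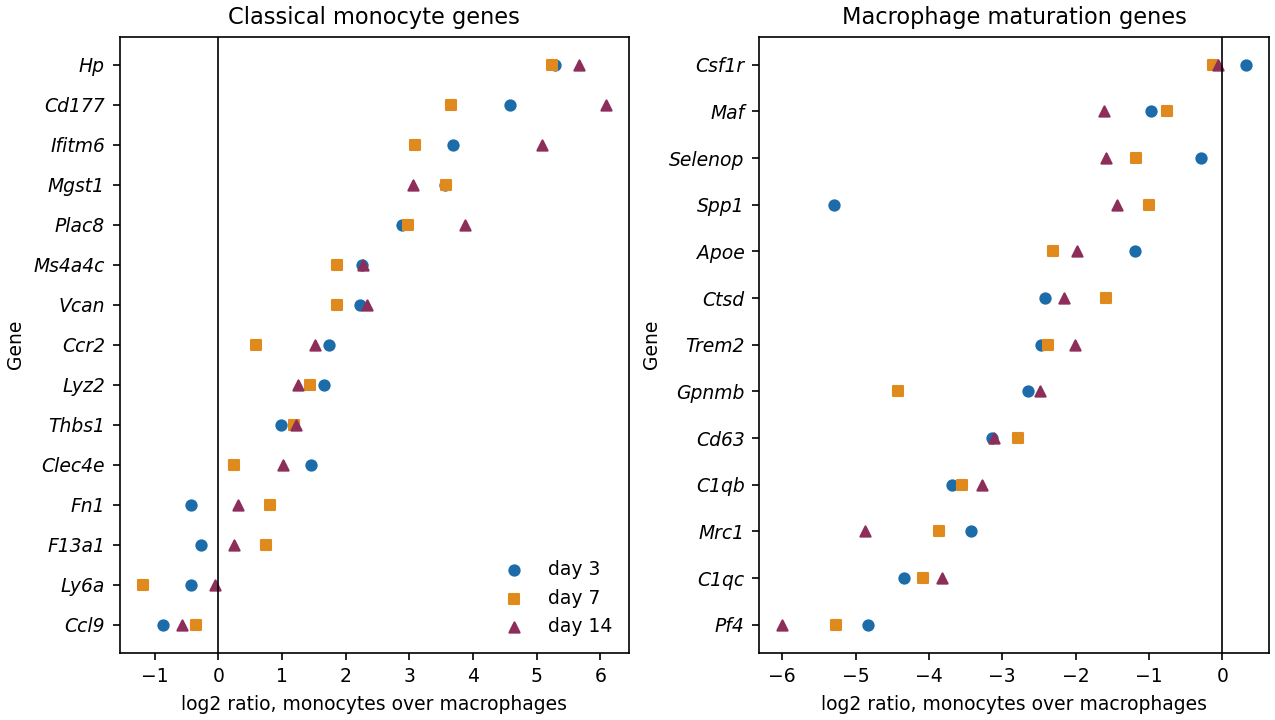
Log2 ratio of classical monocytes over macrophages within each library for genes of the classical monocyte list (left) and the macrophage maturation list (right) that the choice of cells did not use, with day 3 as circles, day 7 as squares and day 14 as triangles; the line marks no difference. Hp, Cd177 and Ifitm6 lie furthest to the right and Pf4, C1qc and Mrc1 furthest to the left by their median, while Csf1r lies near 0. C1qc goes with C1qa, by which the macrophages were chosen.

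Ccl8, a monocyte-attracting chemokine, was far higher in macrophages, at 268, 665 and 876 CPM on days 3, 7 and 14 against 2.18, 3.93 and 8.91 CPM in monocytes. Mmp12, the macrophage elastase, had 294, 723 and 389 CPM against 2.90, 10.1 and 9.51 CPM. Gdf15, a stress-induced cytokine, had 62.9, 165 and 83.6 CPM against 0.726, 9.56 and 0 CPM, and its 1, 17 and 0 UMIs in monocytes give no stable fold. Chemokines were lower in monocytes in 8 of 15 cases (4.57% of all genes). The single one that was higher in all libraries (8.62% of all genes) was Cxcl10, at 2.79-, 2.07- and 1.84-fold. Of 18 interferon-gamma genes 9 were higher in monocytes and 1, Iigp1, lower (8.62% and 4.57% of all genes). Gbp2 had 1999, 719 and 609 CPM in monocytes and 443, 175 and 129 CPM in macrophages. Of 16 type I interferon genes 8 were higher and none lower (8.62% and 4.57% of all genes). Among the higher was Ifitm3, which blocks the entry of viruses, at 5692, 5237 and 4576 CPM against 1933, 2059 and 1554 CPM.

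Among mediators, Il1b was higher in monocytes by 2.58-, 1.83- and 1.63-fold on days 3, 7 and 14 and Osm by 1.90-, 1.89- and 1.96-fold. Adhesion and homing receptors were higher in 7 of 13 cases and lower in none (8.62% and 4.57% of all genes). Itgal had 222, 170 and 147 CPM in monocytes against 23.6, 19.5 and 23.7 CPM in macrophages, and Itga4, a chain of the integrin VLA-4, 179, 149 and 141 CPM against 55.0, 35.7 and 48.9 CPM. MHC class II genes were lower in 4 of 7 cases (4.57% of all genes), with H2-Ab1 at 1492, 3555 and 2183 CPM in macrophages. Lipid and lysosome genes were lower in 8 of 15 cases and hypoxia and glycolysis genes in 5 of 15 (4.57% of all genes). None was higher in either list (8.62% of all genes). Ctsb, a lysosomal protease, had 1503, 1282 and 1041 CPM against 3700, 3632 and 3544 CPM, and Ldha, the lactate dehydrogenase, 601, 664 and 642 CPM against 1272, 1080 and 1035 CPM. Of 17 transcription factors 4 were higher and 1 lower (8.62% and 4.57% of all genes). Among the higher was Spi1, the myeloid factor PU.1, at 1.78-, 1.56- and 1.81-fold. Cebpa was lower, at 41.4, 47.8 and 47.5 CPM against 69.2, 84.3 and 86.6 CPM.

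The interferon-gamma list was also compared between days in the other groups. Its median for day 14 over day 3 was -1.46 in the classical monocytes, -1.26 in macrophages and -1.64 in 123 and 129 non-classical monocytes. In the 661 and 174 Ly6c2 monocytes with a Cxcl9 UMI, which are on the high side of the response, the median was -1.04. For all genes measured the medians of these groups were between -0.07 and 0.01. For MHC class II the median ran the other way in each of these groups. It was 0.36 in the classical monocytes, 0.47 in macrophages, 0.89 in the Ly6c2 monocytes with Cxcl9 and 0.18 in non-classical monocytes. The value of the classical monocytes lay between 0.08 and 0.62 under the alternatives, and their median cell was not higher, at 899 and 686 CPM. Macrophages showed no steady rise, with a class II median of 1.12 for day 7 over day 3 and -0.68 for day 14 over day 7. Whether the groups differ in these medians was not tested.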

How the data were processed

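Unique molecular identifier counts per gene and barcode were deposited by the authors for each library, and the submitters' processing notes name Cell Ranger 4.0.0 and the mm10 build. The labels' protocol describes isolation of CD45+ cells with a cell sorter and the design text with magnetic beads. Counts were summed over the cells of a group, divided by the summed counts and multiplied by 1000000 (CPM). A ratio carries an exact conditional 95% interval, a share an exact Clopper-Pearson interval, and a group at 0 was set to a floor of 3 counts in that library. Classical monocytes were compared between days, and with macrophages within each library, where a call needs at least 50 UMIs in each library and the same direction in all 3. The intervals were run on simulated counts drawn from the same counting model that they assume. The simulation held no spread between cells or mice, so it cannot show how the intervals behave under such spread. Each day had 1 library, so no p-value was computed. Named genes were the 6 highest and 6 lowest of each comparison by the interval bound nearest 0, leaving out mitochondrial, ribosomal, predicted and gate genes, receptor segments and T, B, erythroid and melanoma markers, plus up to 4 members of each of 27 lists with the most UMIs or the largest bound. Further list members were named after their values were seen. The members and lists were chosen with earlier results of these data known, and 2 list genes, Mx1 and Clec7a, were not analysed here. Some genes are not reported here, though counts and medians of the lists include them. Doublets were scored with the scrublet method of scanpy 1.11.5, the top 0.8% for each 1000 cells being taken as an alternative, and were kept otherwise. Alternatives covered the gate, the fold, the UMI minimum, the denominator, depth and TMM scaling in edgeR 4.0.16 (R 4.3.3). Python 3.11.15, numpy 2.4.6, pandas 2.3.3, scipy 1.17.1 and matplotlib 3.10.9 were used.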

Additional observations from a re-analysis of the deposited data

Results flagged for a closer look

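In 8 genes of the text, monocytes were above macrophages in 1 library and below them in another by the rule of size. The difference between libraries was not tested in any of them. For Cd274 the log2 ratio of monocytes over macrophages was 0.68 on day 3 and -0.87 on day 7. Cxcr4 stood at 0.72 on day 3 and -0.63 on day 7. Inhba stood at 1.98 on day 3 and -1.72 on day 7. Ccl4 stood at 0.90 on day 7 and -0.75 on day 14. The ratios of Timp1 were 2.43 on day 7 and -1.17 on day 14, and those of Lyz1 were 2.83 and -1.32 on the same days. Ccl5 was at -1.31 on day 3 and 2.34 on day 14, and Ccr7 at -4.44 on day 3 and 3.20 on day 14. In the day 14 monocytes 1 cell held 307 of 396 UMIs of Ccl5 and 57 of 63 of Ccr7, and in the day 7 monocytes 1 cell held 105 of 123 UMIs of Lyz1.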

How the results depend on the processing

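No paired analysis was possible because each day is 1 library, so that no replicate could be left out either. The median ratio of the interferon-gamma list stayed below 0 under every alternative run, between -1.64 and -1.34 for day 14 over day 3. The type I list median for day 7 over day 3 lay between -0.26 and 0.04. Without the Cxcl9 limit the log2 ratio of the monocyte share was -0.71 for day 7 over day 3, where the full rule gives 0.36, and -1.10 for day 14 over day 3, where it gives 0.03. Without the Arg1 limit the latter was 0.41, and over Lyz2-positive cells the day 7 over day 3 ratio was 0.85.

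Counts of called genes followed the thresholds. At 2-fold, 57 genes were higher and 48 lower on day 7 than on day 3, against 262 and 223. The same setting gave 43 and 70 for day 14 over day 7 (187 and 332), 78 and 135 for day 14 over day 3 (267 and 445), and 197 and 90 for monocytes over macrophages (400 and 212). With at least 200 UMIs the counts were 77 and 87, 34 and 132, 60 and 208, and 226 and 93 in the same order. Without the Cxcl9 limit 537 genes were higher and 420 lower on day 7 than on day 3, and 548 higher on day 14 than on day 3. Without the Arg1 limit 285 were higher on day 14 than on day 7. Against macrophages with at least 3 UMIs of Adgre1 and C1qa, 263 were higher in monocytes.

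Among the ratios between days that were called, those given here changed sign under an alternative, and the cause was not tested. Ratios closer to 0 changed sign in further genes and are not listed. For day 7 over day 3 without the Cxcl9 limit, Ccl5 was at -0.81, Mrc1 at 0.86, S100a8 at 0.12, S100a9 at 0.41, Saa3 at -1.02 and the granule list median at 0.41. With at least 2 UMIs of Ly6c2 and Chil3, S100a8 was at 0.28, S100a9 at 0.48 and that median at 0.21, which was 0.050 with at least 20 UMIs. Mrc1 was at 0.39 with at least 5 UMIs of Ly6c2 and Chil3, where Spp1 for day 14 over day 7 was at -0.67 and Pf4 for day 14 over day 3 at 2.55. Without the Arg1 limit Spp1 was at -0.95 for day 7 over day 3, and Mrc1 at 0.86 for day 14 over day 7 and at 0.69 for day 14 over day 3, the latter ratio being 0.63 for Pf4 and 0.064 for Timp1. For day 14 over day 3, Pf4 was at 0.03 and Ccl5 at -0.084 without the Cxcl9 limit, and Ccl5 at -0.47 without the top doublet scores. Without the Camp cell S100a8 was at -0.97 and S100a9 at -2.86 for day 14 over day 3, and without the 3 Gzma cells Ccl5 was at -0.11 for day 7 over day 3.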
